A study of Mus musculus with 6 samples.

Results

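The nuclei described here are endothelial nuclei of the mouse left ventricle in which transcripts of Vegfc, Alk, Kirrel3, Col13a1 and Ptprr prevailed, and they are called Vegfc Alk nuclei below. Among 69249 barcodes in 6 libraries, 48438 held at least 500 unique molecular identifiers (UMIs, each a counted RNA molecule), at least 300 genes and at most 5% of UMIs from mitochondrial genes. Endothelial nuclei were taken as those with at least 3 UMIs of Flt1, Pecam1, Cdh5 and Ptprb together, with at most 1 UMI of the endocardial genes Npr3, Nrg1 and Smoc1, of the lymphatic genes Mmrn1 and Reln, and of the mural and fibroblast genes Pdgfra and Rgs5, and with less than 1% of UMIs from Ttn, Ryr2 and Myh6. This left 13254 nuclei. A nucleus joined the Vegfc Alk set where its summed UMIs of the 5 genes were at least 2 and exceeded both the sum of Car4, Kit, Gabrb2, Ablim3 and Cyp4b1 and the sum of Adam23, Nr5a2, Alox12, Cxcl12 and Sox17. The set held 4168 nuclei, 31.4% of the endothelial nuclei and 8.60% of all nuclei kept. The nuclei in which either of the other sums prevailed by the same rule, 5889 Car4 Kit nuclei and 1223 Sox17 Cxcl12 nuclei, served for comparison, and 1974 endothelial nuclei fell in none of the 3 sets. Membership was chosen from the transcripts themselves, so the levels of the 15 genes summed in the rule are a description of the choice. These genes stayed in the fits over all genes, and nothing is read from their tests.

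The libraries came from male mice aged 12 weeks, with 2 libraries in each of 3 groups. WT-CD were wild-type littermates on control diet, R403Q-CD were heterozygous for the R403Q mutation of the alpha cardiac myosin heavy chain (labelled Myh6+/R404Q) on the same diet, and R403Q-EMPA carried the mutation and ate diet with 0.15 mg of empagliflozin per g, about 15 mg/kg. Empagliflozin is an inhibitor of sodium-glucose cotransporter 2, and R403Q is a mutation of a cardiomyocyte protein that causes hypertrophic cardiomyopathy. Mice were put on these diets at the age of 9 to 10 weeks, and the length of treatment is uncertain, since the labels name a longer diet than these ages allow. All groups shared sex, age, tissue and the base diet, and nuclei were prepared from fresh frozen ventricle.

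VEGFC is a secreted growth factor best known as the ligand of VEGFR-3, the product of Flt4, through which it drives the growth of lymphatic vessels and acts on veins and coronary vessels of the developing heart. ALK is a receptor tyrosine kinase known chiefly from neurons and from tumours, whose ligands are the ALKAL proteins. COL13A1 is a transmembrane collagen of cell adhesion sites, KIRREL3 an adhesion molecule of the immunoglobulin family and PTPRR a receptor-type tyrosine phosphatase. In vessels, the transcription factor COUP-TFII, the product of Nr2f2, maintains venous identity, Notch signalling through Dll4 and Hey1 accompanies arterial identity, and capillaries of the heart take up fatty acids.

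Depth differed between libraries. Each library held between 31787308 and 45397128 UMIs in all, and the Vegfc Alk nuclei of a library summed to between 1100003 and 3494216 UMIs, with a median of 2366.5 to 3840 UMIs per nucleus. The median was 3406.5 UMIs in R403Q-EMPA replicate 1 and 2366.5 UMIs in R403Q-EMPA replicate 2. The median mitochondrial share of the nuclei was 2.61% to 3.60%. Counts of 2 libraries of the same group differed beyond sampling noise, with a chi-square per degree of freedom of 8.13 (WT-CD), 2.01 (R403Q-CD) and 3.43 (R403Q-EMPA). Within each group, neither library was therefore a copy of the other. The labels do not say how many animals each library held, so the tests measure the spread between libraries. Pairs of libraries shared 9 to 36 barcodes among the nuclei kept and 0 to 2 among the Vegfc Alk nuclei. A doublet caller marked 120 members, 2.88%, and these were kept in the set.

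The endothelial markers were checked against other nuclei of the same libraries, although the rule itself asked for 4 of them and limited cardiomyocyte transcripts. A list of 11 endothelial markers summed to 11820 to 13220 CPM (the summed UMIs of the set scaled to a common total per library) in Vegfc Alk nuclei, against 42.6 to 73.6 CPM in the cardiomyocyte set of the same libraries and 249 to 318 CPM in the fibroblast set. Transcripts of other cell types were present at low level. The cardiomyocyte list summed to 1578 and 1170 CPM in WT-CD, 1976 and 1868 CPM in R403Q-CD, and 1788 and 1756 CPM in R403Q-EMPA, against 62560 to 67268 CPM in cardiomyocyte nuclei. The fibroblast list stood at 858 CPM in WT-CD replicate 1 and at 256 to 405 CPM in the other 5 libraries, against 9062 to 13355 CPM in fibroblast nuclei. WT-CD replicate 1 therefore stood apart in fibroblast transcripts. The lymphatic list stood at 83.0 to 156 CPM and the pericyte list at 53.8 to 121 CPM.

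The members held a median of 9 UMIs of the 5 genes and a maximum of 160. Vegfc carried most of the rule. It was detected in 3763 members, 90.3%, followed by Kirrel3 in 2384 (57.2%), Col13a1 in 1240 (29.8%), Ptprr in 853 (20.5%) and Alk in 800 (19.2%). A single gene of the 5 was detected in 1201 members, 28.8%, of which 939 had Vegfc alone, while 984 had 3 of the genes and 51 had all 5. The name Vegfc Alk thus describes the sum over the set, since most members had no UMI of Alk. At the edge of the rule, 271 members had exactly 2 UMIs, 1264 endothelial nuclei outside the set had 1 UMI, and 973 had at least 2 UMIs but a larger sum of another set. The competing sums were 0 in 42.6% of members for the Car4 genes and in 53.8% for the Sox17 genes.

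Levels of the 5 genes in the members differed in how they varied across libraries. Vegfc stood at 1744 and 1692 CPM in WT-CD, 1742 and 1713 CPM in R403Q-CD, and 1256 and 1377 CPM in R403Q-EMPA. Kirrel3 stood at 2433 and 3074 CPM in WT-CD, 2849 and 2812 CPM in R403Q-CD, and 915 and 1521 CPM in R403Q-EMPA. Both genes were thus lowest in the R403Q-EMPA libraries, without overlap with the other 4, and Kirrel3 was detected in 39.2% and 47.4% of the R403Q-EMPA members against 61.9% to 64.4% elsewhere. Alk stood at 112 and 143 CPM in WT-CD, 198 and 157 CPM in R403Q-CD, and 153 and 137 CPM in R403Q-EMPA. Col13a1 stood at 127 and 177, 187 and 149, and 147 and 185 CPM, and Ptprr at 102 and 103, 82.1 and 77.4, and 116 and 91.8 CPM, in the same order of groups. For Alk and Col13a1 the libraries of R403Q-EMPA lay within the range of the other libraries. Within this rule the levels are conditional on membership and carry no test.

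**Figure D1:**
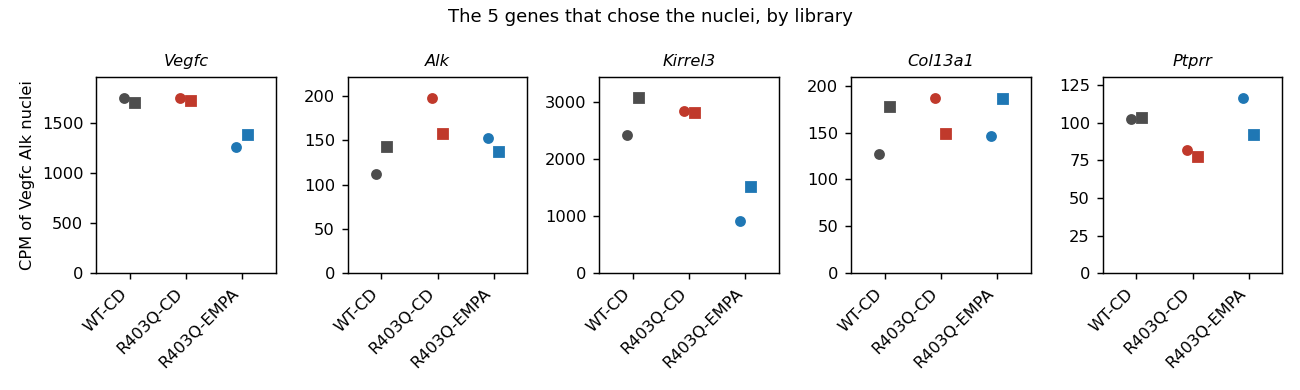
CPM of the 5 genes of the rule in Vegfc Alk nuclei (y axes, linear from 0) for each library by group (x axes), with circles for replicate 1 and squares for replicate 2. Vegfc and Kirrel3 were lowest in both R403Q-EMPA libraries, with Kirrel3 at 915 and 1521 CPM.

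Each of the 5 genes was also left out of the choice in turn. The rule was chosen with earlier results of these data known, so the levels that follow describe the choice and carry no test. Where nuclei were chosen by the other 4 genes, the gene left out was higher in the nuclei chosen than in Car4 Kit nuclei in 6 of 6 libraries for each of the 5. Col13a1 stood at 125 to 181 CPM in the nuclei so chosen against 0.624 to 7.95 CPM, the widest gap. Kirrel3 stood at 606 to 2761 CPM against 191 to 504 CPM, Vegfc at 1030 to 1649 CPM against 233 to 429 CPM, Alk at 89.0 to 165 CPM against 18.3 to 42.8 CPM, and Ptprr at 75.1 to 94.7 CPM against 11.7 to 23.9 CPM. The ratio within a library was 20.96 to 201 for Col13a1 and between 2.30 and 7.37 for the other 4.

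Detection was also compared at equal depth, with each nucleus thinned to 1500 UMIs, which left out 105 members. Vegfc was then detected in 71.6% to 83.7% of members per library. As a background, 0.172% to 1.60% of cardiomyocyte nuclei had a UMI of Vegfc, while 13.7% to 16.9% of fibroblast nuclei had it, at 114 to 157 CPM. Alk was detected in 10.4% to 16.8% of members against 0% to 0.461% of fibroblast nuclei, and Col13a1 in 13.9% to 21.3% of members against 0.174% to 0.382% of Car4 Kit nuclei, 0% to 0.115% of fibroblast nuclei and 0% to 1.70% of cardiomyocyte nuclei. Vegfc transcripts in this tissue were therefore shared with fibroblasts.

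Several genes that the rule did not use were far higher in Vegfc Alk nuclei than in Car4 Kit nuclei of the same library. These levels come from nuclei sorted by their transcripts and are given without a test. Of 9540 genes with a mean of at least 10 CPM in either set, 247 (2.59%) were over 2-fold higher and 93 (0.975%) over 2-fold lower in all 6 libraries. Against Sox17 Cxcl12 nuclei, 118 (1.22%) were higher and 107 (1.11%) lower of 9641. Ret, a receptor tyrosine kinase of neural development, stood at 49.6 to 86.4 CPM against 1.25 to 4.37 CPM in Car4 Kit nuclei, with a median log2 difference of 4.55 and a smallest difference of 4.12. Il33, a nuclear cytokine released as an alarm signal, stood at 46.3 to 102 CPM against 1.70 to 6.24 CPM. Stc1, a secreted glycoprotein, stood at 84.6 to 185 CPM against 2.91 to 13.9 CPM, and Nt5e, which makes extracellular adenosine, at 59.7 to 120 CPM against 1.79 to 11.4 CPM. Igfbp5, a binding protein of insulin-like growth factors, stood at 289.9 to 1516 CPM against 19.1 to 88.9 CPM. Sema3d, a secreted semaphorin, stood at 250.1 to 336 CPM against 24.8 to 38.7 CPM, and the cation channel Trpv4 at 54.2 to 86.7 CPM against 4.85 to 10.7 CPM. In each of these 7 genes the Vegfc Alk libraries lay above all Car4 Kit libraries. Ret and Il33 were also at 37.7 to 97.9 CPM and 49.9 to 108 CPM in fibroblast nuclei, where Stc1 was at 0.267 to 1.65 CPM.

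**Figure D2:**
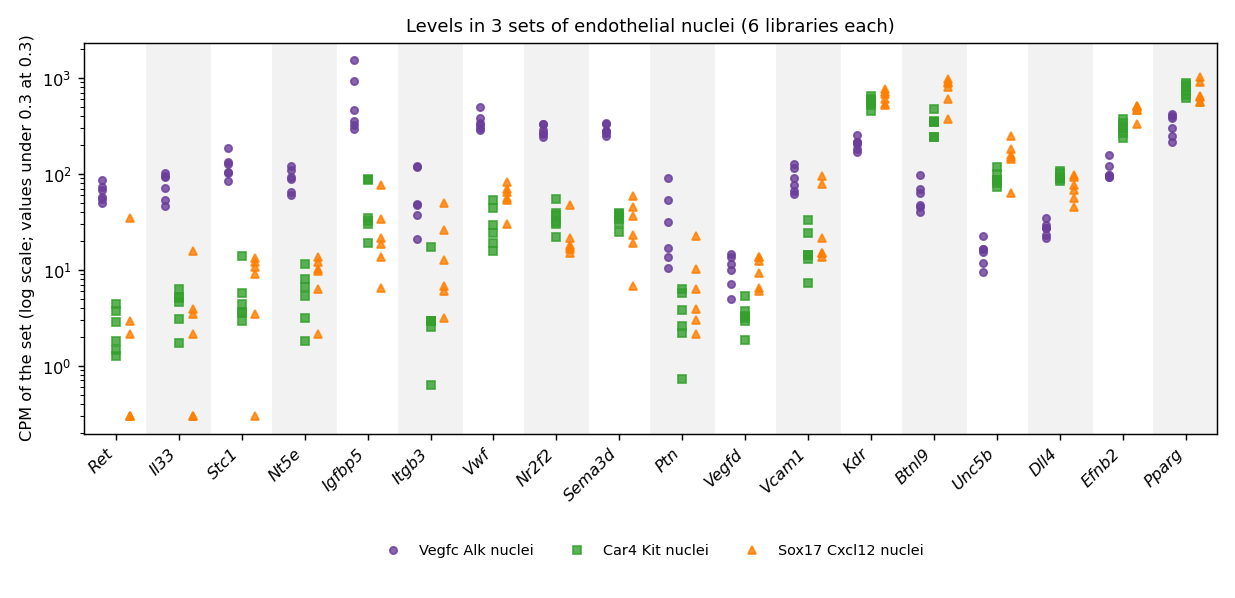
CPM (y axis, log scale, with values under 0.3 drawn at 0.3) of 18 genes (x axis) in Vegfc Alk (circles), Car4 Kit (squares) and Sox17 Cxcl12 nuclei (triangles), with 1 point for each of the 6 libraries. Ret, Vwf, Nr2f2 and Sema3d lay higher in all Vegfc Alk points, and Kdr, Btnl9, Unc5b and Dll4 lower.

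Venous markers were among the genes that were higher. Of 11 venous genes at this level, 6 were over 2-fold higher than in Car4 Kit nuclei in all libraries (Nr2f2, Vwf, Vcam1, Lrg1, Il1r1 and Cpe) and 4 were so against Sox17 Cxcl12 nuclei. Nr2f2 stood at 243 to 329 CPM against 22.1 to 54.9 CPM in Car4 Kit and 15.1 to 46.7 CPM in Sox17 Cxcl12 nuclei. Vwf, von Willebrand factor, stood at 287 to 502 CPM against 15.8 to 53.7 and 30.2 to 81.5 CPM, and Il1r1, the interleukin-1 receptor, at 248 to 389.6 CPM against 52.4 to 77.1 and 34.0 to 96.6 CPM. Thinned to 1500 UMIs, Nr2f2 was detected in 26.1% to 33.2% of members against 2.58% to 7.14% of Car4 Kit nuclei, and Vwf in 21.5% to 33.6% against 1.44% to 5.45%. The venous receptor Ephb4 differed less, at 297 to 335 CPM against 197 to 221 CPM. Markers of the venules that recruit leukocytes were detected in few members. After thinning to 1500 UMIs, Ackr1 was detected in 6 and Selp in 29 of 4063 members, and with all UMIs Ackr1 was detected in 0% to 1.08% and Selp in 0.413% to 5.16% of members per library.

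Markers of the other vessel beds were mixed. Of 13 capillary genes, 4 were over 2-fold lower than in Car4 Kit nuclei in all libraries (Btnl9, Aqp7, Kdr and Cd300lg) and none was higher. Btnl9, a butyrophilin-like surface protein, stood at 39.8 to 97.6 CPM against 239.9 to 477 CPM. Of 11 arterial genes, 4 were higher (Jag1, Bmx, Fbln5 and Stmn2) and 3 lower (Efnb2, Dll4 and Unc5b). Unc5b, a netrin receptor, stood at 9.45 to 22.2 CPM against 72.8 to 117 CPM. Against Sox17 Cxcl12 nuclei, Fbln5, an elastic fibre protein, was instead lower in 6 of 6 libraries, at 30.8 to 84.2 CPM against 46.7 to 123 CPM. Among 10 Notch genes, the ligands Dll1 (57.1 to 101 against 15.1 to 32.03 CPM) and Jag1 (55.7 to 105 against 18.7 to 29.0 CPM) were higher and the ligand Dll4 (21.4 to 34.3 against 83.4 to 107 CPM) was lower. Of 10 tip cell genes 1 was higher, Plvap, and 4 were lower, Angpt2, Col4a2, Nid2 and Lamb1.

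The ligand Vegfc was not matched by its receptor in these levels. Flt4 stood at 58.5 to 78.6 CPM in Vegfc Alk nuclei and 60.2 to 87.2 CPM in Car4 Kit nuclei, and was higher in 2 of 6 libraries. Kdr, the main receptor of VEGF-A, stood at 168 to 251 CPM against 447 to 642 CPM and was lower in all 6 libraries. Vegfd, the other ligand of VEGFR-3, stood at 4.97 to 14.7 CPM against 1.87 to 5.36 CPM, and Angpt2, a ligand of TEK, at 5.15 to 10.9 CPM against 22.2 to 48.6 CPM. Of the ligands of ALK, Alkal1 gave 1 UMI and Alkal2 stood at 0 to 1.43 CPM. Ptn, pleiotrophin, stood at 13.4 and 16.9 CPM in WT-CD, 10.4 and 31.6 CPM in R403Q-CD, and 53.8 and 90.0 CPM in R403Q-EMPA, against 0.728 to 6.24 CPM in Car4 Kit nuclei. In the flow list of 7 genes, Klf4, Thbd and Ptgs1 were over 2-fold higher than in Car4 Kit nuclei, and in the fatty acid list of 10, Pparg (216 to 419 against 609 to 879.7 CPM) and Aqp7 were lower. No gene of the heat shock, clock, MHC class I, junction or BMP lists passed 2-fold against Car4 Kit nuclei in all libraries in either direction.

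Of the endothelial nuclei, the Vegfc Alk set took 40.1% and 39.2% in the WT-CD libraries, 28.4% and 27.4% in the R403Q-CD libraries, and 26.6% and 29.1% in the R403Q-EMPA libraries. The mean share was 39.6% ± 0.638 (SD, n = 2) for WT-CD, 27.9% ± 0.669 (n = 2) for R403Q-CD and 27.9% ± 1.83 (n = 2) for R403Q-EMPA. R403Q-CD lay -11.8 percentage points from WT-CD, without overlap of libraries and against a pooled SD of 0.653 points, with an exact two-sided permutation p of 0.333, the smallest that 2 libraries against 2 allow. R403Q-EMPA lay -11.8 points from WT-CD (exact permutation p = 0.333), and its difference from R403Q-CD was -0.0242 points, within the spread (exact permutation p = 1). The share rests on Vegfc and Kirrel3, whose levels in the members were lowest in R403Q-EMPA. With Vegfc left out of the rule the difference of R403Q-CD from WT-CD was -7.33 points and that of R403Q-EMPA from R403Q-CD was -2.55 points, and with Kirrel3 left out they were -10.1 and 0.730 points. Thinned to 1500 UMIs, the shares were 37.8% and 35.4%, 26.8% and 25.0%, and 20.7% and 26.8%, in the same order of groups.

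The share is relative to the other endothelial nuclei. Car4 Kit nuclei took 35.3% and 45.2% of WT-CD endothelial nuclei, 55.5% and 55.2% of those of R403Q-CD, and 34.4% and 42.8% of those of R403Q-EMPA, and Sox17 Cxcl12 nuclei took 20.3% in R403Q-EMPA replicate 1 against 4.18% to 7.17% in the other 5 libraries. Among all nuclei kept, the Vegfc Alk nuclei were 7.15% and 11.8% of WT-CD libraries, 8.36% and 7.91% of R403Q-CD libraries, and 10.1% and 6.19% of R403Q-EMPA libraries. On that denominator the groups overlapped, and the difference of R403Q-CD from WT-CD was -1.34 points (exact permutation p = 1). The libraries of the R403Q groups were thus lower within endothelial nuclei, and among all nuclei their range overlapped that of WT-CD.

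**Figure D3:**
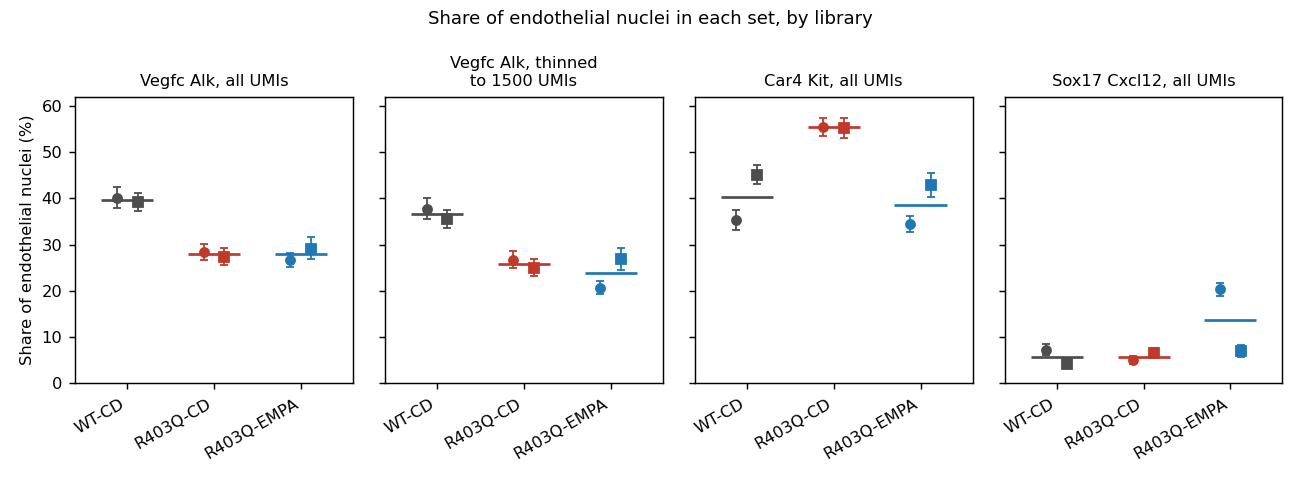
Share of endothelial nuclei (y axes, %) in the Vegfc Alk set with all UMIs and after thinning to 1500 UMIs, in the Car4 Kit set and in the Sox17 Cxcl12 set, by group (x axes). Points are libraries with Wilson 95% binomial intervals, which cover counting error only, and lines are group means, such as 39.6%, 27.9% and 27.9% in the first panel.

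The first question was which transcripts of these nuclei differed with the mutation, whose protein is made in cardiomyocytes. UMIs were summed per library and gene and tested by edgeR's quasi-likelihood test over 11927 genes with all 6 libraries in the fit, and genes with a Benjamini-Hochberg adjusted p under 0.05 were called. No gene was called (0%), with 332 genes at an unadjusted p under 0.05 and 2 genes called by DESeq2. Without WT-CD replicate 1, the library with more fibroblast transcripts, edgeR called 6 genes, without WT-CD replicate 2 it called 4, and without R403Q-CD replicate 1 it called 2. The smallest p belonged to H2-Q7, a non-classical MHC class I gene, which stood at 16.4 and 12.6 CPM in WT-CD and at 43.9 and 109 CPM in R403Q-CD. Its log2 fold change was 2.45 (SE 0.38), with an adjusted p of 0.607 by edgeR. Of the list of 16 MHC class I and interferon genes, 7 were at an unadjusted p under 0.05, with a median log2 fold change of 0.25 against 0.01 over all genes.

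Other genes among the 10 smallest p followed the same form, each without a call. Plcxd3 stood at 35.8 and 24.0 CPM in WT-CD and 8.02 and 5.13 CPM in R403Q-CD, and Lepr, the leptin receptor, at 23.4 and 17.7 CPM and 6.13 and 7.27 CPM. Ptgds, a prostaglandin D2 synthase, stood at 17.4 and 10.0 CPM against 31.6 and 33.4 CPM. The groups did not overlap for these 3 genes, which alone says little since 27.6% of all genes did not overlap. Ppp2r2b, a regulatory subunit of protein phosphatase 2A, gave 57 UMIs in the wild-type libraries and 0 with the mutation, at least 15.4-fold lower against a floor of 3 counts over the group. Ctnna3 and Myom1, which cardiomyocyte nuclei held at 4659 to 6595 and 1580 to 2463 CPM, were also in this group, at 34.8 and 36.9 CPM in WT-CD against 64.6 and 89.0 CPM in R403Q-CD for Ctnna3. Beside this, all 7 tested genes of the cardiomyocyte list had a positive log2 fold change (median 0.48) and all 6 tested genes of the fibroblast list a negative (median -0.94), and their part in the other differences was not tested.

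Empagliflozin was compared with control diet in mutant mice by the same test. In R403Q-EMPA against R403Q-CD, 83 of 11927 genes (0.696%) were called, 60 higher (0.503%) and 23 lower (0.193%). Of the gene lists, heat shock held the most calls, with 10 of its 14 genes higher and none lower. MHC class I genes were lower, with 4 of the list of 16 called. All 83 genes called were without overlap of the libraries, as were 44.5% of all genes tested. Of the 11927 genes, 1181 were at an unadjusted p under 0.05 by edgeR. The number of calls moved with single libraries, to 329 and 314 without WT-CD replicates 1 and 2, 25 and 31 without R403Q-CD replicates 1 and 2, and 25 without R403Q-EMPA replicate 1. With members chosen after thinning to 1500 UMIs it was 38. Of the 23 lower genes 1, Cyp4b1, belongs to the rule, and nothing is read from its test.

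Hspa1a and Hspa1b, which encode the inducible chaperone HSP70, rose most in the heat shock list. Hspa1a stood at 0.995 and 0.859 CPM in WT-CD, 1.42 and 2.57 CPM in R403Q-CD, and 49.9 and 71.8 CPM in R403Q-EMPA. Hspa1b stood at 0.995 and 0.572 CPM, 0.472 and 1.28 CPM, and 39.5 and 51.8 CPM. Both R403Q-EMPA libraries lay far above the other 4, which held 4 to 9 UMIs per group. The log2 fold change from R403Q-CD was 4.81 (SE 0.38) for Hspa1a and 5.52 (SE 0.46) for Hspa1b, each with an adjusted p of 0.000474 by edgeR. The genes are near-identical copies that share reads, so their split is uncertain.

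Cofactors and other chaperones rose with them. Hsph1, a nucleotide exchange factor of HSP70, stood at 16.9 and 8.01 CPM in WT-CD, 17.5 and 15.4 CPM in R403Q-CD, and 143 and 135 CPM in R403Q-EMPA (log2 fold change 3.04, SE 0.25, edgeR adjusted p = 0.000474). Hsp90aa1, the inducible HSP90, stood at 66.7 and 48.4, 64.6 and 56.9, and 186 and 207 CPM (log2 fold change 1.65, SE 0.18, edgeR adjusted p = 0.00222). Hspa4l stood at 48.8 and 40.6, 40.6 and 36.4, and 158 and 161 CPM, Chordc1, a cochaperone of HSP90, at 57.7 and 57.5, 61.8 and 52.2, and 157 and 185 CPM, and Dnaja1, of the HSP40 family, at 184 and 119.9, 234 and 167, and 491 and 540 CPM. In each of these genes the lowest R403Q-EMPA library was over 2-fold above the highest of the R403Q-CD libraries. Hspa8, Hspb1 and Hsp90ab1 were also called higher. Bag3, which did not pass (edgeR adjusted p = 0.347), stood at 94.5 and 96.7, 109.9 and 105, and 145 and 154 CPM. All 14 genes were at an unadjusted p under 0.05, and the median log2 fold change of the list was 1.52 against 0.00 over all genes. Without each of the 4 libraries compared in turn, Hspa8, Hspb1, Hsp90ab1 and Dnaja1 were no longer called (edgeR adjusted p 0.0592 to 0.304), nor was Chordc1 without R403Q-CD replicate 2 (0.0546), while Hspa1a, Hspa1b, Hsph1, Hsp90aa1 and Hspa4l kept their calls.

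The promoters of the heat shock genes were searched for the letters that heat shock factor reads, because the genes rose together. The motif searched was a pair of inverted GAA units, GAANNTTC or TTCNNGAA, where each is its own reverse complement, in the 250 bases before the start of the gene in RefSeq (mouse build GRCm38.p6, while the deposited counts were made on GRCm39). Of the 14 genes, 11 had a promoter in the table and 6 of these held a match (54.5%): Dnaja1, Hspa1a, Hspa1b, Hspb1, Hspe1 and Hsph1. Of all 32851 promoters, 4218 held one (12.8%). The promoters of Hspa1b and Hsph1 are printed here, at chr17:34959239-34959488 and chr5:149636337-149636586, both on the minus strand, since these genes had among the largest differences. Capitals mark the match, which ended 96 and 25 bases before the start.
Hspa1b: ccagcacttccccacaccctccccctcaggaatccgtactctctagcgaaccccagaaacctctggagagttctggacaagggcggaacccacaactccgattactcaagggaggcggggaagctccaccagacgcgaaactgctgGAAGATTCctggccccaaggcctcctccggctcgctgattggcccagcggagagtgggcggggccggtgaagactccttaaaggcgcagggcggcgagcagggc
Hsph1: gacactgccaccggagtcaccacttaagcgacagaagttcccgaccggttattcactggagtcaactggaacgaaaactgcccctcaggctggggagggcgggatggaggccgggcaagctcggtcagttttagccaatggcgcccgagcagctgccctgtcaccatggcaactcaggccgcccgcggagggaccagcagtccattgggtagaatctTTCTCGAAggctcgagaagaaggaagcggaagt
A match is a description of these letters only. A run of 3 such units, inverted in turn with NN between them, was found in 0.466% of all promoters and in 1 of the 11, that of Hspe1.

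The MHC class I genes, which present peptides to T cells, moved the other way. H2-K1, a classical heavy chain, stood at 188 and 134 CPM in WT-CD, 227 and 329 CPM in R403Q-CD, and 105 and 89.1 CPM in R403Q-EMPA (log2 fold change -1.55, SE 0.21, edgeR adjusted p = 0.0111). H2-Q7 stood at 16.4 and 12.6, 43.9 and 109, and 6.85 and 4.55 CPM (log2 fold change -3.68, SE 0.46, edgeR adjusted p = 0.00525), and H2-Q6 at 15.9 and 8.87, 29.3 and 63.7, and 2.28 and 0.909 CPM. H2-Q4 stood at 48.8 and 59.2, 80.7 and 104, and 29.4 and 24.5 CPM. The R403Q-CD libraries were the highest and the R403Q-EMPA libraries the lowest for these 4 genes, and H2-Q6 and H2-Q7 are similar enough in sequence to share reads. B2m, the light chain of MHC class I, stood at 252 and 168, 259.98 and 429, and 161 and 159 CPM, and did not pass (edgeR adjusted p = 0.0606), nor did Nlrc5, a transactivator of these genes (0.0564). The list had a median log2 fold change of -0.84. The calls of H2-Q4, H2-Q6 and H2-Q7 were lost without R403Q-EMPA replicate 1 (edgeR adjusted p 0.0757 to 0.104), and that of H2-K1 without R403Q-CD replicate 2, R403Q-EMPA replicate 1 or R403Q-EMPA replicate 2 (0.0546 to 0.101).

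Clock genes and hypoxia genes supplied further calls. Arntl and Npas2, activators of the circadian clock, rose from 5.66 and 6.84 to 39.8 and 53.6 CPM and from 2.36 and 2.99 to 21.2 and 26.4 CPM (edgeR adjusted p = 0.0127 and 0.0118), and WT-CD stood at 2.98 and 8.87 CPM for Arntl and 2.49 and 4.58 CPM for Npas2. These were 2 of 17 clock genes tested, and both calls were lost without R403Q-CD replicate 1, R403Q-CD replicate 2 or R403Q-EMPA replicate 1 (edgeR adjusted p 0.0590 to 0.104). They were also lost with members chosen after thinning to 1500 UMIs (edgeR adjusted p = 0.0935 for Arntl and 0.354 for Npas2). P4ha1, a collagen prolyl hydroxylase, stood at 142 and 114 CPM in WT-CD, 148 and 136 CPM in R403Q-CD, and 481 and 469 CPM in R403Q-EMPA (log2 fold change 1.70, SE 0.15, edgeR adjusted p = 0.000657). P4ha1 and Egln3, an oxygen-dependent hydroxylase, were the 2 of 11 hypoxia genes called. Egln3 rose from 14.2 and 16.3 to 46.7 and 36.4 CPM, with 26.9 and 24.9 CPM in WT-CD, and its call was lost without any of 3 libraries (edgeR adjusted p 0.111 to 0.276), with members chosen after thinning (0.0830) and with no mitochondrial filter (0.0793).

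**Figure D4:**
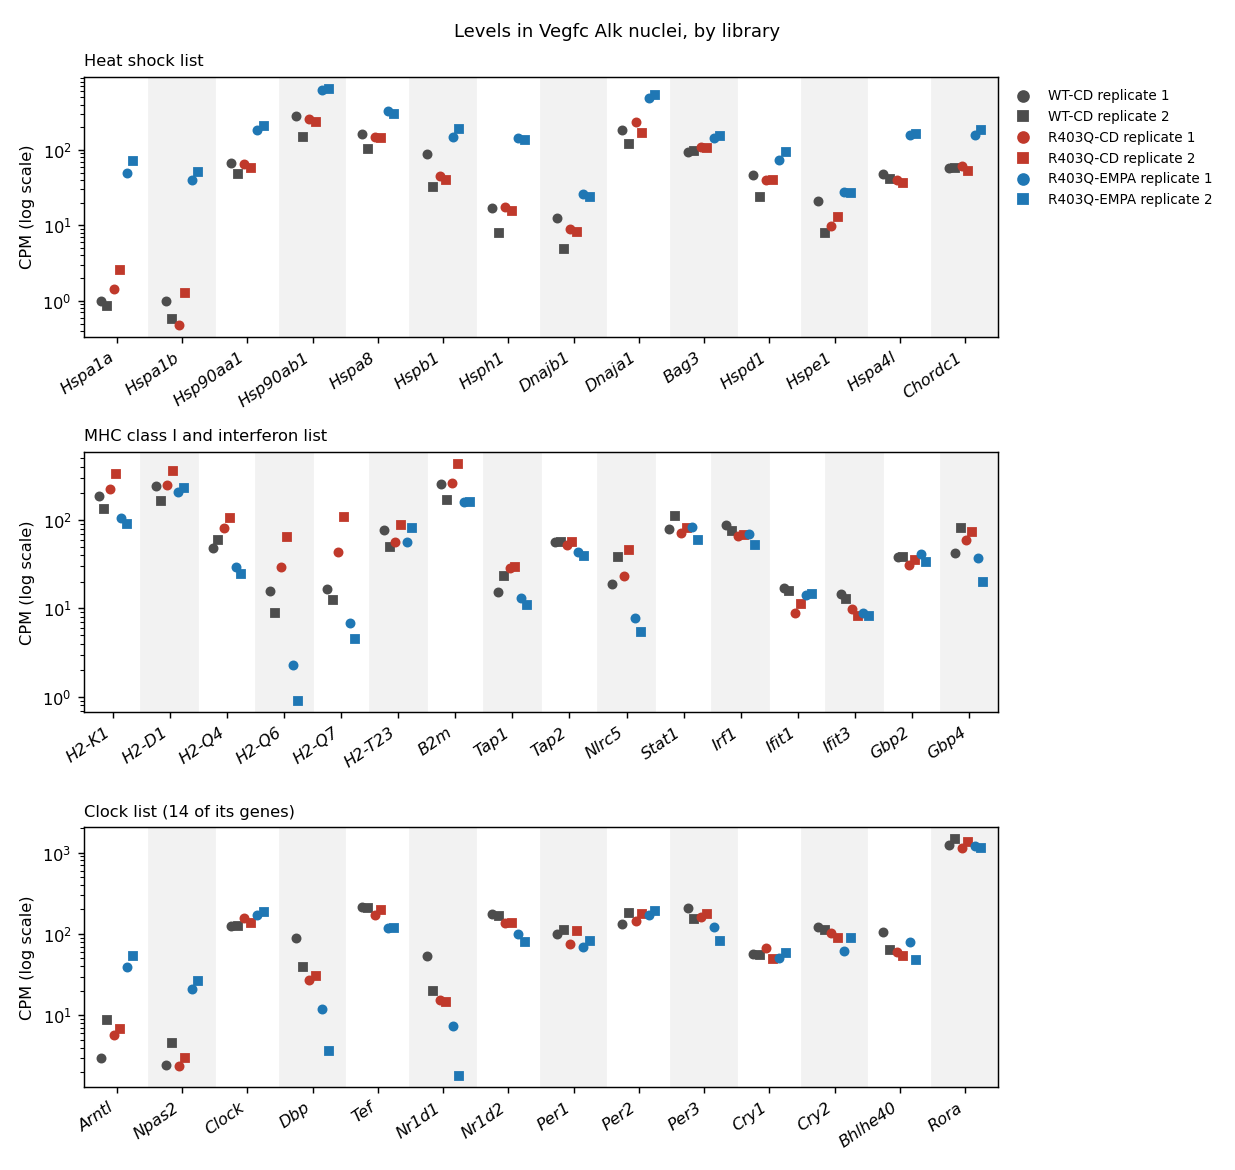
CPM (y axes, log scale) of the heat shock list, the MHC class I and interferon list and 14 genes of the clock list (x axes) in Vegfc Alk nuclei, with 1 point per library. The R403Q-EMPA points lay highest for Hspa1a (49.9 and 71.8 CPM) and Arntl, and lowest for H2-Q7 (6.85 and 4.55 CPM) and Dbp.

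Igfbp5 and Itgb3, which were higher in Vegfc Alk than in Car4 Kit nuclei in all libraries, were called, as were Inhba and Bmpr1a. Igfbp5 rose from 319 and 467 CPM in R403Q-CD to 928 and 1516 CPM in R403Q-EMPA (log2 fold change 1.59, SE 0.25, edgeR adjusted p = 0.0189), with 358 and 289.9 CPM in WT-CD. Igfbp5 was also called higher in Car4 Kit nuclei (log2 fold change 1.80, edgeR adjusted p = 0.00368). The difference between the sets was not called (-0.33, SE 0.19, edgeR adjusted p = 0.809). Itgb3, the beta-3 integrin, rose from 46.7 and 47.9 to 117 and 120 CPM (edgeR adjusted p = 0.0428). Inhba, a subunit of activin, rose from 3.77 and 12.4 to 53.8 and 139 CPM (edgeR adjusted p = 0.0213). Bmpr1a, a receptor of bone morphogenetic proteins, rose from 15.1 and 19.2 to 51.2 and 52.7 CPM (edgeR adjusted p = 0.0118), 1 of 16 genes of the BMP and TGF-beta list. Each of these genes was highest in both R403Q-EMPA libraries. Each call was lost without at least 2 of the 4 libraries compared taken out in turn, with edgeR adjusted p of 0.0546 to 0.281 for Igfbp5, 0.122 to 0.327 for Itgb3, 0.0597 to 0.149 for Inhba and 0.0525 to 0.154 for Bmpr1a. With members chosen after thinning to 1500 UMIs, the calls of Itgb3, Inhba and Bmpr1a were lost (edgeR adjusted p = 0.0582, 0.260 and 0.132). That of Itgb3 was also lost with at least 3 UMIs in the rule, without Kirrel3 in it or with no mitochondrial filter (edgeR adjusted p = 0.0507, 0.0629 and 0.0848). No gene of the VEGF and angiopoietin, Notch, flow, junction, basement membrane, fatty acid, axon guidance or immediate early lists was called by edgeR, and Flt4 had a log2 fold change of 0.20 (SE 0.20).

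Endocardial markers moved with the group. Cdh11, a cadherin listed as an endocardial marker, stood at 29.4 and 19.5 CPM in WT-CD, 9.91 and 38.1 CPM in R403Q-CD, and 228 and 208 CPM in R403Q-EMPA (log2 fold change 3.12, SE 0.39, edgeR adjusted p = 0.00528). Tmem108 stood at 95.5 and 109, 59.0 and 119.8, and 247 and 255 CPM (edgeR adjusted p = 0.0388). The endocardial list summed to 141 and 145, 84.0 and 174, and 491 and 514 CPM, nearly all of it from Cdh11 and Tmem108 in R403Q-EMPA. The defining markers stayed low in all libraries, as the rule requires, with Npr3 at 6.53 to 13.3 CPM and Smoc1 at 1.14 to 3.64 CPM, and 2 of the 4 list genes tested were called. The call of Tmem108 was lost without R403Q-CD replicate 1 or either R403Q-EMPA library (edgeR adjusted p 0.112 to 0.274), while that of Cdh11 held without each library. With members chosen after thinning to 1500 UMIs, both calls were lost (edgeR adjusted p = 0.348 for Tmem108 and 0.154 for Cdh11), and that of Tmem108 also with at least 3 UMIs or without Kirrel3 in the rule (0.103 and 0.0827). Ltbp2, a matrix protein, rose from 0.472 and 0.428 to 22.2 and 8.18 CPM, while fibroblast nuclei of R403Q-EMPA replicate 1 held it at 139.5 CPM, and its call was lost without any of 3 libraries (edgeR adjusted p 0.129 to 0.467). In other cell type lists the median log2 fold change was 0.78 for fibroblast markers (3 of 6 at an unadjusted p under 0.05), 0.93 for lymphatic markers (4 of 5 positive, 2 at an unadjusted p under 0.05), -0.48 for pericyte markers (5 of 5 negative), 0.39 for venous markers (12 of 14 positive), 0.50 for arterial markers (11 of 13 positive) and -0.33 for capillary markers (10 of 13 negative). Whether these transcripts came from the members or from RNA of other cells was not tested.

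The genes with the smallest log2 fold change in this comparison included several that were not part of a list. Fhod3, a formin that assembles actin, fell from 117 and 98.4 to 28.7 and 41.8 CPM, Lnx1, a ubiquitin ligase, from 145 and 133 to 46.7 and 65.5 CPM, and Tnfrsf21, death receptor 6, from 42.0 and 54.3 to 10.4 and 19.1 CPM. Iigp1, an interferon-inducible GTPase, fell from 179 and 229.7 to 48.3 and 27.3 CPM (log2 fold change -2.40, SE 0.42, edgeR adjusted p = 0.0329), with 105 and 270.45 CPM in WT-CD. All 4 calls were lost without at least 2 of the libraries compared, with edgeR adjusted p 0.0501 to 0.288, and those of Lnx1 and Iigp1 also with members chosen after thinning to 1500 UMIs (0.0922 and 0.0829). Those of Lnx1 and Fhod3 were lost without Kirrel3 in the rule too (edgeR adjusted p = 0.103 and 0.0690), and that of Lnx1 with no mitochondrial filter (0.0737). Ppp2r2b gave 0 UMIs in R403Q-CD and 78 in R403Q-EMPA, at least 27.8-fold higher against the floor of 3 counts, though its call was lost with members chosen after thinning to 1500 UMIs or without Kirrel3 (edgeR adjusted p up to 0.155), and Kcnq5, a potassium channel, gave 2 and 137 UMIs, a 73.3-fold ratio (95% counting interval 19.9 to 611). WT-CD held Ppp2r2b at 15.4 and 7.44 CPM and Kcnq5 at 8.46 and 3.15 CPM, between these values for Kcnq5, whose call was lost without R403Q-CD replicate 1 (edgeR adjusted p = 0.0592) and with members chosen after thinning (0.0680).

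R403Q-EMPA was also compared with WT-CD, so that genotype and diet changed together. Here 74 of 11927 genes (0.62%) were called by edgeR, 48 higher (0.402%) and 26 lower (0.218%), and 37.4% of all genes had groups without overlap. Of the 11927 genes, 1291 were at an unadjusted p under 0.05 by edgeR. The heat shock list again had 9 of 14 genes higher, Hspb1 being the gene not called here, and a median log2 fold change of 1.59. Hspa1a (5.93, SE 0.42, edgeR adjusted p = 0.000203) and Hsph1 (3.55, SE 0.26, 0.000203) had the smallest adjusted p. Without R403Q-EMPA replicate 1 the calls of Hspa8 and Hsp90ab1 were lost (edgeR adjusted p = 0.143 and 0.105). Taking out WT-CD replicate 1, WT-CD replicate 2 or R403Q-EMPA replicate 1 gave 417, 171 and 17 calls in all. Both comparisons with R403Q-EMPA share its libraries, so their results are not independent. Cell type markers moved with this comparison too. The median log2 fold change was 0.50 for cardiomyocyte markers (7 of 7 positive, 4 at an unadjusted p under 0.05), -1.02 for pericyte markers (5 of 5 negative), 0.54 for arterial markers (11 of 13 positive) and 2.23 for the 4 endocardial markers tested, of which Cdh11 was called. That call was lost without R403Q-EMPA replicate 1 (edgeR adjusted p = 0.0517) and with members chosen after thinning to 1500 UMIs (0.0773). Their part in the calls was not tested.

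The clock and MHC lists differed in what passed. Dbp, a transcription factor under clock control, stood at 89.5 and 39.2 CPM in WT-CD, 26.9 and 30.8 CPM in R403Q-CD, and 12.1 and 3.64 CPM in R403Q-EMPA (log2 fold change from WT-CD -2.74, SE 0.43, edgeR adjusted p = 0.0197). Nr1d2 (-0.94, adjusted p = 0.0302) and Tef (-0.84, adjusted p = 0.0399) were also lower and Arntl (2.79, adjusted p = 0.0105) and Npas2 (adjusted p = 0.0176) higher by edgeR. Thus 5 of 17 clock genes were called. All 5 calls were lost without R403Q-EMPA replicate 1, and those of Npas2, Nr1d2 and Tef also without others (edgeR adjusted p 0.0547 to 0.310). The call of Npas2 was lost with members chosen after thinning (edgeR adjusted p = 0.155) or with at least 3 UMIs in the rule (0.0685), those of Nr1d2 and Tef with only the groups compared in the fit (0.1001 and 0.115), and that of Tef without Kirrel3 in the rule (0.0542). No MHC gene was called by edgeR, with 8 of 16 at an unadjusted p under 0.05 and a median of -0.57. H2-K1 had a log2 fold change of -0.72 (SE 0.21, edgeR adjusted p = 0.195).

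Other genes called against WT-CD were not part of a heat shock or clock list. Nppa, the natriuretic peptide precursor of cardiomyocytes, stood at 15.9 and 7.73 CPM in WT-CD, 57.6 and 47.9 CPM in R403Q-CD, and 296 and 57.3 CPM in R403Q-EMPA (log2 fold change 4.03, SE 0.62, edgeR adjusted p = 0.0176). Cardiomyocyte nuclei held Nppa at 42.9 and 25.9, 123 and 177, and 1137 and 285 CPM and fibroblast nuclei at 9.84 and 5.88, 37.5 and 27.4, and 267 and 47.2 CPM in the same libraries. In all 3 kinds of nuclei the WT-CD libraries were thus lowest and R403Q-EMPA replicate 1 was highest. Cyp26b1, which degrades retinoic acid, fell from 172 and 86.7 CPM in WT-CD to 13.1 and 32.7 CPM (edgeR adjusted p = 0.0295), with 32.6 and 64.6 CPM in R403Q-CD. Kcnip1 gave 46 UMIs in WT-CD and 2 in R403Q-EMPA, while fibroblast nuclei held it at 168 and 174 CPM in WT-CD and 36.3 and 46.5 CPM in R403Q-EMPA. Jam3, a junctional adhesion molecule, stood at 78.1 and 64.7 CPM in WT-CD and 35.9 and 39.1 CPM in R403Q-EMPA (log2 fold change -0.94, edgeR adjusted p = 0.0489), the only gene of 9 in the leukocyte adhesion list that was called. The calls of Nppa and Cyp26b1 were lost without R403Q-EMPA replicate 1 (edgeR adjusted p = 0.0517 and 0.316), that of Cyp26b1 also by DESeq2 (adjusted p = 0.0536), and those of Kcnip1 and Jam3 without any of 5 and 4 libraries (0.0537 to 0.525 and 0.101 to 0.458). With members chosen after thinning to 1500 UMIs, Kcnip1 and Jam3 were not called either (edgeR adjusted p = 0.482 and 0.116). Nor were they with only the groups compared in the fit (0.0785 and 0.127, edgeR adjusted p) or at least 3 UMIs in the rule (0.0540 and 0.0909). Kcnip1 was further lost with no mitochondrial filter (edgeR adjusted p = 0.0616), and Jam3 without Kirrel3 in the rule (0.119) and by DESeq2 (adjusted p = 0.106).

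Whether these differences were larger or smaller than in Car4 Kit nuclei was tested in an edgeR model of both sets with the library as a block, over 12912 genes. The difference of effect was called in 1 gene (0.00774%) for R403Q-CD against WT-CD, in 46 genes (0.356%) for R403Q-EMPA against R403Q-CD and in 58 genes (0.449%) for R403Q-EMPA against WT-CD. The 46 and 58 include 3 and 1 genes of the rule, from which nothing is read. Of the 83 and 74 genes called within Vegfc Alk nuclei, the difference was called for 12 (Cyp4b1 of the rule among them) and 6. Within Car4 Kit nuclei 57 and 146 genes were called, and 26 and 38 were called in both sets. Without R403Q-CD replicate 1 the 46 became 18, without R403Q-EMPA replicate 2 they became 78, and DESeq2 gave 16. The 58 became 19 without WT-CD replicate 1, 24 without WT-CD replicate 2 and 90 without R403Q-EMPA replicate 2, and DESeq2 gave 23. The single call for R403Q-CD against WT-CD was lost without WT-CD replicate 2, and there were 2 calls without R403Q-CD replicate 1 and 4 without either R403Q-EMPA library. For Hspa1a, the effect of R403Q-EMPA against R403Q-CD was 4.81 in Vegfc Alk and 5.94 in Car4 Kit nuclei on the log2 scale, a difference of -1.11 (SE 0.71) with an edgeR adjusted p of 0.852. No gene of the heat shock or MHC list differed between the sets by edgeR. H2-Q7 fell by 3.68 and 3.71 on the log2 scale in the 2 sets, a difference of -0.01 (SE 0.48).

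In some genes the estimated effects in the 2 sets had opposite signs. The test was of their difference, and an effect within a set did not always pass. Pcdh9, a protocadherin, stood at 32.1 and 49.2 CPM in R403Q-CD and 67.9 and 90.9 CPM in R403Q-EMPA in Vegfc Alk nuclei, against 54.9 and 62.2 CPM and 24.4 and 23.3 CPM in Car4 Kit nuclei (difference of effect 2.15, SE 0.25, edgeR adjusted p = 0.000209). Its effect was 0.89 in Vegfc Alk nuclei (edgeR adjusted p = 0.284) and -1.31 in Car4 Kit nuclei (0.00872), so it was called in Car4 Kit nuclei alone. Sobp stood at 31.3 and 23.8, 14.6 and 27.4, and 70.2 and 73.6 CPM in Vegfc Alk nuclei and at 29.9 and 25.7, 17.9 and 15.8, and 13.6 and 13.1 CPM in Car4 Kit nuclei (difference against WT-CD 2.42, SE 0.31, edgeR adjusted p = 0.000200). Both genes were highest in fibroblast nuclei, and RNA from other cells was not tested as a part of the differences. Bmpr1a stood at 10.2 to 16.7 CPM in Car4 Kit nuclei over all groups (difference against WT-CD 1.57, SE 0.31, edgeR adjusted p = 0.0189), a difference lost without any of 3 libraries (0.0910 to 0.408). Against WT-CD its effect within Vegfc Alk nuclei was not called (edgeR adjusted p = 0.0522), and against R403Q-CD, where that effect was called, the difference between sets was not (0.0507). Hmcn1, a basement membrane hemicentin, and Ltbp1, a binding protein of latent TGF-beta, had differences of 0.85 (SE 0.10) and 1.21 (SE 0.14) against WT-CD, with effects of 0.25 and 0.40 in Vegfc Alk nuclei and of -0.60 and -0.79 in Car4 Kit nuclei. Neither effect of Hmcn1 passed within its set (edgeR adjusted p = 0.700 in Vegfc Alk and 0.0865 in Car4 Kit nuclei).

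In other genes the effect in Vegfc Alk nuclei was below that in Car4 Kit nuclei. Trpm3, a cation channel, had an effect of -1.17 in Vegfc Alk nuclei (edgeR adjusted p = 0.0198) and -0.25 in Car4 Kit nuclei for R403Q-EMPA against R403Q-CD, a difference of -0.97 (SE 0.12, adjusted p = 0.000209). The effect within Vegfc Alk nuclei was no longer called without R403Q-CD replicate 1, R403Q-CD replicate 2 or R403Q-EMPA replicate 1 (edgeR adjusted p 0.0912 to 0.281). Iigp1 had effects of -2.40 and -1.04, a difference of -1.36 (SE 0.17, edgeR adjusted p = 0.000209). Pparg, a regulator of lipid metabolism, stood at 419 and 402 CPM in R403Q-CD and 216 and 249 CPM in R403Q-EMPA in Vegfc Alk nuclei, against 879.7 and 832 CPM and 664 and 733 CPM in Car4 Kit nuclei (difference -0.56, SE 0.10, edgeR adjusted p = 0.00842). Cd36, a fatty acid transporter, had a difference of -0.42 (SE 0.08, edgeR adjusted p = 0.0213). In Vegfc Alk nuclei alone neither Pparg (edgeR adjusted p = 0.0655) nor Cd36 (0.626) passed, so these 2 of 13 fatty acid genes differed in the contrast between sets and were not called within the set. Their difference was lost without any of 3 libraries (edgeR adjusted p 0.0662 to 0.279). Hbb-bs, a haemoglobin gene of red cells, was the single call for R403Q-CD against WT-CD (difference -1.18, SE 0.13, edgeR adjusted p = 0.000138), and cardiomyocyte nuclei held it at 68.9 to 149 CPM. That call was lost without WT-CD replicate 2 (edgeR adjusted p = 0.179).

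**Figure D5:**
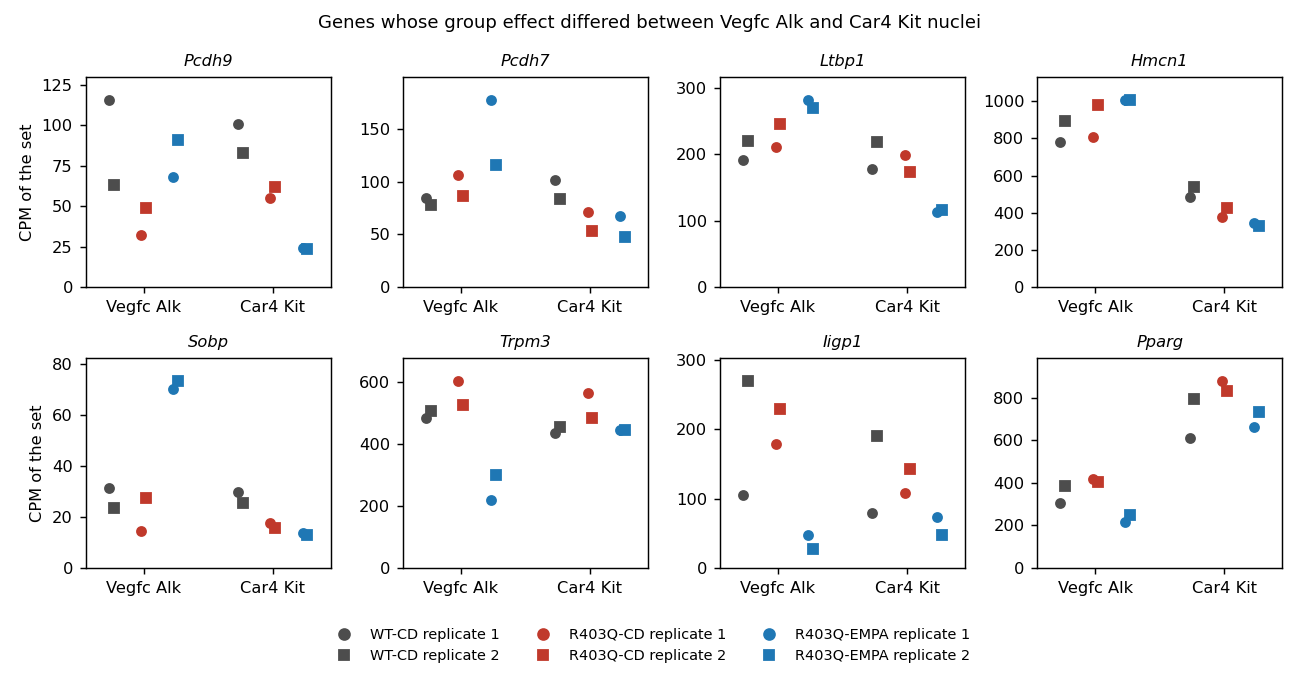
CPM (y axes, linear from 0) of 8 genes whose group effect differed between the sets, in Vegfc Alk and Car4 Kit nuclei (x axes), with 1 point per library coloured by group. Pcdh9 and Sobp lay higher in R403Q-EMPA than in R403Q-CD in Vegfc Alk nuclei (70.2 and 73.6 CPM for Sobp) and lower in Car4 Kit nuclei, and Pparg lay lowest in the R403Q-EMPA points of Vegfc Alk nuclei.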

How the data were processed

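Single-nucleus RNA sequencing was performed on left ventricle of 6 mouse libraries. For each library the authors deposited the filtered UMI counts of every gene in every nucleus, not normalised, from Cell Ranger 8.0.1, and the submitters' processing notes name GRCm39. The annotation and the counting of introns are not given in the sources used here. Groups were taken from the labels. Replicates were numbered in the order of deposit.

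Members were chosen by the rule given above, and the rule, the gene lists and the comparisons were chosen with earlier results of these data known. UMIs were summed per set and library, and nuclei were not used as replicates. Group differences were tested by edgeR 4.0.16 in R 4.3.3 (filterByExpr, TMM, quasi-likelihood test, Benjamini-Hochberg adjustment), and the difference of effect between sets with the library as a block. DESeq2 1.42.0 was an alternative. Log2 levels of sets were computed with an offset of 0.5 UMI added to each count. Doublets were predicted with scrublet in scanpy 1.11.5. Simulated counts with known changes were used as a test: of genes changed by 1.5 on the log2 scale, 75% were recovered for R403Q-EMPA against R403Q-CD (11628 genes), of those changed by 3, 96.8%, and 2.35% of calls were false. For R403Q-CD against WT-CD (11675 genes) 77.3% and 97.0% were recovered with 6.04% of calls false, for R403Q-EMPA against WT-CD (11638 genes) 68.4% and 93.9% with 2.44% false, and for the difference between sets in R403Q-EMPA against R403Q-CD (12649 genes) 51.0% and 90% with 2.10% false. The simulated spread followed the same trend with level in all groups and had no part of its own for each gene. These rates may therefore be better than those in the real libraries. Genes named in each comparison were the 10 most raised and the 10 most lowered of the called genes by log2 fold change, without overlap of libraries (or the 10 smallest p), the 5 smallest p in the difference of effect, the most distinct genes of the set of at least 50 CPM, and list members. Intervals of shares are Wilson intervals at 95%, ratios of few counts have exact binomial intervals, and intervals and floors cover counting error only. The treatment protocol in the labels names a longer diet than the labelled ages allow, while the study gives 2 weeks for the mice of this age, so the length of treatment is uncertain.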

Additional observations from a re-analysis of the deposited data

Results flagged for a closer look

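The effect of a group comparison differed between Vegfc Alk and Car4 Kit nuclei, by the test of the difference itself, in the genes below, and values are log2 effects in Vegfc Alk nuclei minus those in Car4 Kit nuclei. For R403Q-CD against WT-CD the gene was Hbb-bs (-1.18). For R403Q-EMPA against R403Q-CD the differences were 2.15 for Pcdh9 and 0.96 for Ltbp1, and -0.97 for Trpm3, -1.36 for Iigp1, -0.66 for Dnm3, -0.42 for Cd36 and -0.56 for Pparg. Of these, Pcdh9 and Ltbp1 (0.89 and 0.23 in Vegfc Alk nuclei, -1.31 and -0.72 in Car4 Kit nuclei) and Dnm3 and Cd36 (-0.46 and -0.29 in Vegfc Alk nuclei, 0.20 and 0.13 in Car4 Kit nuclei) had estimated effects of opposite sign. Neither effect passed within its set for Dnm3 (edgeR adjusted p = 0.491 and 0.813) or Cd36 (0.626 and 0.860). For R403Q-EMPA against WT-CD they were 1.52 for Pcdh7, 0.85 for Hmcn1, 1.21 for Ltbp1, 2.42 for Sobp, 1.57 for Bmpr1a and 0.51 for Rora, and -1.01 for Trpm3, -0.45 for Cd36 and -0.58 for Pparg. Here the estimated effects of Pcdh7, Hmcn1, Ltbp1, Sobp and Bmpr1a were positive in Vegfc Alk nuclei and negative in Car4 Kit nuclei. Cd36 had effects of -0.09 and 0.37, and Trpm3 of -0.96 in Vegfc Alk nuclei and almost none in Car4 Kit nuclei (0.01). Neither effect passed within its set for Pcdh7 (edgeR adjusted p = 0.0981 and 0.197), Hmcn1 (0.700 and 0.0865) or Cd36 (0.915 and 0.331). Ltbp1, Trpm3, Cd36 and Pparg, which are listed for both comparisons with R403Q-EMPA, had a difference in the same direction in them. These comparisons share the R403Q-EMPA libraries. A gene listed for a single comparison can have been called in the other too, as Dnm3 was (-0.56 against WT-CD, edgeR adjusted p = 0.00406). Pcdh7 was at 5370.3 to 6706 CPM in cardiomyocyte nuclei, and Pcdh9 at 2031 to 2908 CPM in fibroblast nuclei, and the part of such RNA in these differences was not tested. The calls of Cd36, Pparg, Rora, Bmpr1a and Hbb-bs were lost without at least 1 library (edgeR adjusted p 0.0524 to 0.408).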

How the results depend on the processing

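No paired analysis was possible because the replicate numbers were given in order of deposit and the labels share none. The counts of called genes depended on the processing and the cause was not tested. For R403Q-CD against WT-CD, 0 calls became 2 by DESeq2 and 47 with no filter on low counts, and leaving out a library gave 0 to 6 (6 without WT-CD replicate 1, 4 without WT-CD replicate 2, 2 without R403Q-CD replicate 1). For R403Q-EMPA against R403Q-CD, 83 became 127 by DESeq2, 435 with no filter, 260 with only the groups compared in the fit, 53 with at least 3 UMIs in the rule and 38 with members chosen after thinning to 1500 UMIs, and leaving out a library gave 25 to 329 (329 and 314 without WT-CD replicates 1 and 2, 25 and 31 without R403Q-CD replicates 1 and 2, 25 without R403Q-EMPA replicate 1). For R403Q-EMPA against WT-CD, 74 became 493 with no filter and 47 with only the groups compared, and leaving out a library gave 17 to 417 (417 and 171 without WT-CD replicates 1 and 2, 17 without R403Q-EMPA replicate 1). Libraries left in with no partner were assumed to vary like the other groups. The difference of effect between sets, 1, 46 and 58 genes in the 3 comparisons, became 24, 124 and 188 with no filter, and 16 and 23 for the last 2 by DESeq2. Leaving out a library gave 0 to 4 (0 without WT-CD replicate 2, 2 without R403Q-CD replicate 1, 4 without either R403Q-EMPA library), 18 to 78 (18 without R403Q-CD replicate 1, 78 without R403Q-EMPA replicate 2) and 19 to 90 (19 and 24 without WT-CD replicates 1 and 2, 90 without R403Q-EMPA replicate 2).

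The difference in the share of endothelial nuclei, in percentage points, was -11.8 for R403Q-CD against WT-CD and became -10.7 and -9.10 with members chosen after thinning to 1500 and 1000 UMIs and -10.1 without Kirrel3 in the rule, an alternative chosen after seeing the data. For R403Q-EMPA against WT-CD, -11.8 became -13.4 with at least 3 UMIs, -13.7 after thinning to 1000 UMIs and -9.35 without Kirrel3. For R403Q-EMPA against R403Q-CD, -0.0242 became -1.92 with at least 3 UMIs, -2.12 and -4.61 after thinning to 1500 and 1000 UMIs, and 0.730 without Kirrel3, and leaving out a library gave -1.32 to 1.27 (0.448 without R403Q-CD replicate 1, 1.27 without R403Q-EMPA replicate 1), so its sign was not settled.

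The difference of effect of H2-Q7, -0.01 for R403Q-EMPA against R403Q-CD, became 0.0106 with no filter, and leaving out a library gave -0.30 to 0.16. No other named gene changed direction in the alternatives run. Of 38 named genes called in R403Q-EMPA against R403Q-CD, 30 lost their call without some library, and 25 of 33 against WT-CD. Hspa1a, Hspa1b, Hsph1, Hsp90aa1, Hspa4l and P4ha1 were called in every alternative of both comparisons. With 2 libraries per group, no permutation over libraries could reach p under 0.05.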
